A study of Mus musculus with 57 samples.

Results

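From morning to midday of a normally lit day, at 3 h and 7.5 h after lights-on, transcripts of the mouse visual cortex were compared between 4 libraries collected at Zeitgeber time (ZT) 3 and 4 collected at ZT7.5, 8 of the 57 libraries of the series. The libraries were chosen by their labels alone. All were made from total RNA of wild-type mice housed on a cycle of 12 h light and 12 h dark, with the usual light on the day of collection. They were sequenced with MARS-Seq, which counts transcripts by a tag near the 3′ end. The same times in mice whose lights stayed off on the last day (4 libraries at each time) are used here to show which changes were also seen without light. The sources used here do not give age, sex, strain or batch. The labels call the samples biological replicates without saying whether each is 1 animal. The p-values therefore reflect only how much these samples vary, which may be technical in part.

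Light reaching the cortex through the eye activates neurons, and active neurons transcribe immediate-early genes such as those of the Egr, Fos and Nr4a families, whose proteins are transcription factors that switch on later effectors. In parallel, every cell runs a circadian clock in which CLOCK and BMAL1 (the product of Arntl) drive the genes of their own repressors, PER and CRY. Mice are nocturnal, so the interval from morning to midday falls in their rest phase, when body temperature and feeding are low. Both are known to move the transcripts of cold-inducible RNA-binding proteins, heat shock proteins and the chaperones of the endoplasmic reticulum (ER).

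Recovered depth was 2.24 to 3.42 M reads in the ZT3 light libraries and 1.78 to 2.61 M at ZT7.5. Excitatory neuron markers summed to 11970 to 14060 normalised reads over the 8 light libraries. No other tissue was compared, so this sum neither places the samples in cortex nor sets visual cortex apart from other areas. Hippocampus markers summed to 678 to 1386 and striatum markers to 909 to 1117. Thalamic markers summed to 267 to 404 in 7 of the 8 and to 791 in the ZT7.5 library of replicate 1. Choroid plexus markers summed to 233 to 1187. In both groups the replicates numbered 1 and 2 had at most 3.40 normalised reads of Xist, which coats the inactive X chromosome, and the replicates numbered 3 and 4 had 38.4 to 57.1. Y-linked transcripts ran the other way, with sums of 22.3 to 30.6 in replicates 1 and 2 and at most 0.906 in replicates 3 and 4. Changes are therefore also given within each pair of numbers, written as log2 differences within replicates 1 and 2 and within replicates 3 and 4. Sex and other differences between the pairs cannot be told apart here.

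Of 10526 genes tested, 54 changed between ZT3 and ZT7.5 in light (0.513%), 20 upwards (0.19%) and 34 downwards (0.323%), at an adjusted p under 0.05 from limma with Benjamini-Hochberg adjustment. The test used log2 of the normalised read count plus 1, and all log2 differences below are ZT7.5 minus ZT3 on that scale. The transcripts that fell included those of activity-regulated factors (Egr1, Egr3, Egr4 and Fosl2), the clock repressor Per2, chaperones of the ER and the cytosol (Hspa5, Pdia6, Chordc1 and Hsph1), and RNA-binding proteins (Sfpq, Hnrnpm and Tra2a), besides others such as Mest and Lonrf1. Those that rose included the cold-inducible Cirbp, the clock output factor Dbp, and Opalin, Cnp, Gal3st1 and Pllp of myelinating oligodendrocytes. Sizes ran from 0.33 to 1.17 on the log2 scale among the falls and from 0.39 to 1.30 among the rises. Over all genes tested, 5344 log2 differences were positive and 5182 negative. These counts and the shares called are the background for the gene lists below. In bulk tissue, fewer cells of a type and less RNA per cell cannot be told apart.

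The 4 promoters below are shown because they carry the letters of elements known to act in the protein-folding responses whose genes fell. They run from 250 bases before to 50 after the annotated start, on the strand of the gene, from RefSeq (GRCm38.p6, the build of mm10). In the promoters of Hspa5 (chr2:34771840-34772139, plus strand) and Pdia6 (chr12:17266339-17266638, plus strand), capitals mark the ER stress element, CCAAT and CCACG with 9 bases between them. In those of Chordc1 (chr9:18292017-18292316, plus strand) and Hsph1 (chr5:149636287-149636586, minus strand), capitals mark the heat shock element, GAA, TTC and GAA with 2 bases between neighbours, on either strand.
Hspa5: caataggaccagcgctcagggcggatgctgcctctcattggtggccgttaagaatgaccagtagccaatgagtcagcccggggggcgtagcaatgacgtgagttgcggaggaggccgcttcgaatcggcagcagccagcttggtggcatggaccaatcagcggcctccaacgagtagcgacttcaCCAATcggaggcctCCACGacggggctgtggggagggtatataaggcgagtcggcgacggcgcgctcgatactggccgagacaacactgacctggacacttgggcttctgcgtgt
Pdia6: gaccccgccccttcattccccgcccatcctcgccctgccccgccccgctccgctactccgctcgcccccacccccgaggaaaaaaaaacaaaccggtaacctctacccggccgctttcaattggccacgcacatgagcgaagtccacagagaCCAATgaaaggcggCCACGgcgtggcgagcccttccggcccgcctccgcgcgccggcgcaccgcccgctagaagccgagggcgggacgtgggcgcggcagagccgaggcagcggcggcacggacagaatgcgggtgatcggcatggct
Chordc1: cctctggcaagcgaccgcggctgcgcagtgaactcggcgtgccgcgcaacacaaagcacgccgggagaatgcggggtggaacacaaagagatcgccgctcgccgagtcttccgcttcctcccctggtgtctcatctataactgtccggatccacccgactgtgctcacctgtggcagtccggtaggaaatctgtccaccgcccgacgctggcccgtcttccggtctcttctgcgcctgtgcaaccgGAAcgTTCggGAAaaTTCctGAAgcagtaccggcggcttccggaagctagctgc
Hsph1: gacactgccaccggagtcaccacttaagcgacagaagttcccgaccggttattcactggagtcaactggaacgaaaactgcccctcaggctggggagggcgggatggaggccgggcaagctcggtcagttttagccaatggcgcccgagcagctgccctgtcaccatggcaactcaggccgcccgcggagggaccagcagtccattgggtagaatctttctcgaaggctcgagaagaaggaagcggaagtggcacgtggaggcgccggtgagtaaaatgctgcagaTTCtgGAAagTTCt

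Both motifs were picked with the results known, among 7 searched on both strands in the promoters of the 45 called genes that the RefSeq table holds. The ER stress element was found in a promoter of 0.137% of all genes in that table and of 2 of the 45 genes, Hspa5 and Pdia6. It began 65 bases before the start of Hspa5 and 98 before that of Pdia6. The promoters of the ER chaperones Calr and Hsp90b1, which fell without light, also held it, once and at 2 places. Both were picked by name, and matches were not counted over the 25 ER genes tested. Xbp1, the other called ER gene, was not among the called genes with a match. The heat shock element was found for 0.662% of genes and again for 2 of the 45, Chordc1 and Hsph1. Chordc1 held 3 overlapping matches across its start, the first beginning 4 bases before it. The match of Hsph1 began 36 bases after the annotated start of the promoter shown and 15 after that of a second annotated promoter. The canonical E-box (CACGTG, 8.09% of genes) was found in 5 of the 45 genes. The cyclic AMP response element (TGACGTCA, 2.03%) was found in Tra2a and Dio2, and the AP-1 site (TGACTCA, 5.95%) in Hspa5 and Sgsm1. The D-box (TTATGTAA, 1.11%) was found in Vps36. The serum response element was searched only as a single fixed string of 10 letters (0.0777% of genes), and other spellings were not searched. None of the 45 genes held that string, which is too rare for its absence to show that they lack the element. A match is a description of the letters and shows no binding.

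Most of the tested Egr family, transcription factors induced by activity, fell. Of the 5 family genes tested, including the EGR co-repressor Nab2, 3 fell and none rose, against 0.323% and 0.19% of all genes tested. All had negative log2 differences, with a list median of -0.84 against 0.0032 over all genes tested. Egr1, a zinc-finger factor that marks neuronal activity, stood at 1533, 2162, 1751 and 1560 normalised reads in the 4 ZT3 libraries and at 684, 548, 1083 and 985 at ZT7.5. The lowest ZT3 library was above the highest ZT7.5 library, and replicates 1 and 2 were the lowest at ZT7.5. The mean was 1752 ± 290 (SD, n = 4) at ZT3 and 825 ± 251 (SD, n = 4) at ZT7.5, 2.12-fold lower, with a log2 difference of -1.12 ± 0.17 (SE) and an adjusted p of 5e-05 (limma).

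Egr4 (chr6:85511121-85513589, minus strand), a related zinc-finger factor, had 367, 354, 418 and 286 normalised reads at ZT3 and 183, 138, 255 and 232 at ZT7.5. These groups did not overlap either, and the log2 difference was -0.84 ± 0.17 (SE, adjusted p = 0.0059, limma). Egr3 (chr14:70077203-70082614, plus strand), which acts in muscle spindle development as well as in neurons, read 296, 383, 322 and 350 at ZT3 and 170, 251, 237 and 218 at ZT7.5. All ZT7.5 values of Egr3 were below all ZT3 values, with a log2 difference of -0.63 ± 0.12 (SE, adjusted p = 0.0043, limma). Egr2 read 29.3, 41, 30.7 and 31.7 at ZT3 and 6.81, 6.07, 14.3 and 21.8 at ZT7.5, without overlap. Its log2 difference of -1.52 ± 0.54 (SE) was larger than those of its relatives but did not pass (adjusted p = 0.24, limma). Nab2 was level, at 172 ± 21.9 and 158 ± 29.1 (SD, n = 4 each). The list median was -1.18 for replicates 1 and 2 alone and -0.56 for replicates 3 and 4. The call on Egr1 held with each library left out, whereas Egr3 was lost in 2 of the 8 cases (adjusted p up to 0.0644, without replicate 1 of ZT7.5) and Egr4 in 1 (0.083, without replicate 2 of ZT7.5).

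Among the AP-1 factors, 1 of 6 fell and none rose, against 0.323% and 0.19% of all genes tested. The median log2 difference was -0.56. Fosl2 (chr5:32135801-32157842, plus strand), the slow-acting FOS relative FRA2, had 51.6, 79.7, 50.1 and 55.2 normalised reads at ZT3 and 23.8, 31.9, 29.9 and 27 at ZT7.5. The 2 groups were separate, with a log2 difference of -1.03 ± 0.24 (SE, adjusted p = 0.025, limma) that was lost in 4 of 8 cases with a library left out (up to 0.196, without replicate 2 of ZT3). Fos itself, the classic marker of recent activity, had 86.3, 91.4, 118 and 77.9 at ZT3 and 29.5, 34.9, 87.1 and 81 at ZT7.5. Its ZT7.5 libraries split by replicate number, with replicates 1 and 2 far below all ZT3 libraries and replicates 3 and 4 among them, and the difference of -0.81 ± 0.34 (SE) did not pass (adjusted p = 0.35, limma). Fosb stood at 59.2 ± 8.66 and 36 ± 7.37 (SD, n = 4 each) without overlap and without passing (adjusted p = 0.18), while Jun and Jund differed by 0.09 and 0.01.

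The same split recurred in several immediate-early genes, but not in Fosb or Crem. The log2 differences of Fosb and Crem were -0.42 and -0.37 within replicates 1 and 2, against -1.02 and -1.06 within replicates 3 and 4. Npas4, a neuron-specific factor induced by calcium entry, had 29.5 and 24.3 normalised reads in ZT7.5 replicates 1 and 2 and 75.4 and 98.7 in replicates 3 and 4, against 54.7 to 83.9 at ZT3. Arc, whose protein acts at synapses, had 188 and 248 in replicates 1 and 2 of ZT7.5 and 603 and 623 in replicates 3 and 4. The values of Arc at ZT3, 336, 357, 719 and 530, were split in the same way. Nr4a1, a nuclear receptor, had 256, 238, 397 and 495 at ZT7.5 against 435 to 541 at ZT3, and Junb had 314, 349, 640 and 784 against 489 to 831. None of the 3 Nr4a genes, the 16 other immediate-early factors, nor the genes of this paragraph passed the test, with log2 differences of -0.51 (Npas4), -0.34 (Arc), -0.48 (Nr4a1) and -0.41 (Junb). Within replicates 1 and 2 these were -1.21, -0.68, -0.82 and -0.71, and within replicates 3 and 4 they were 0.18, -0.01, -0.14 and -0.11. Across all genes tested, the light change differed between the pairs in 857 genes at an unadjusted p under 0.05 (8.14%) and in 0 after adjustment (limma).

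**Figure D1:**
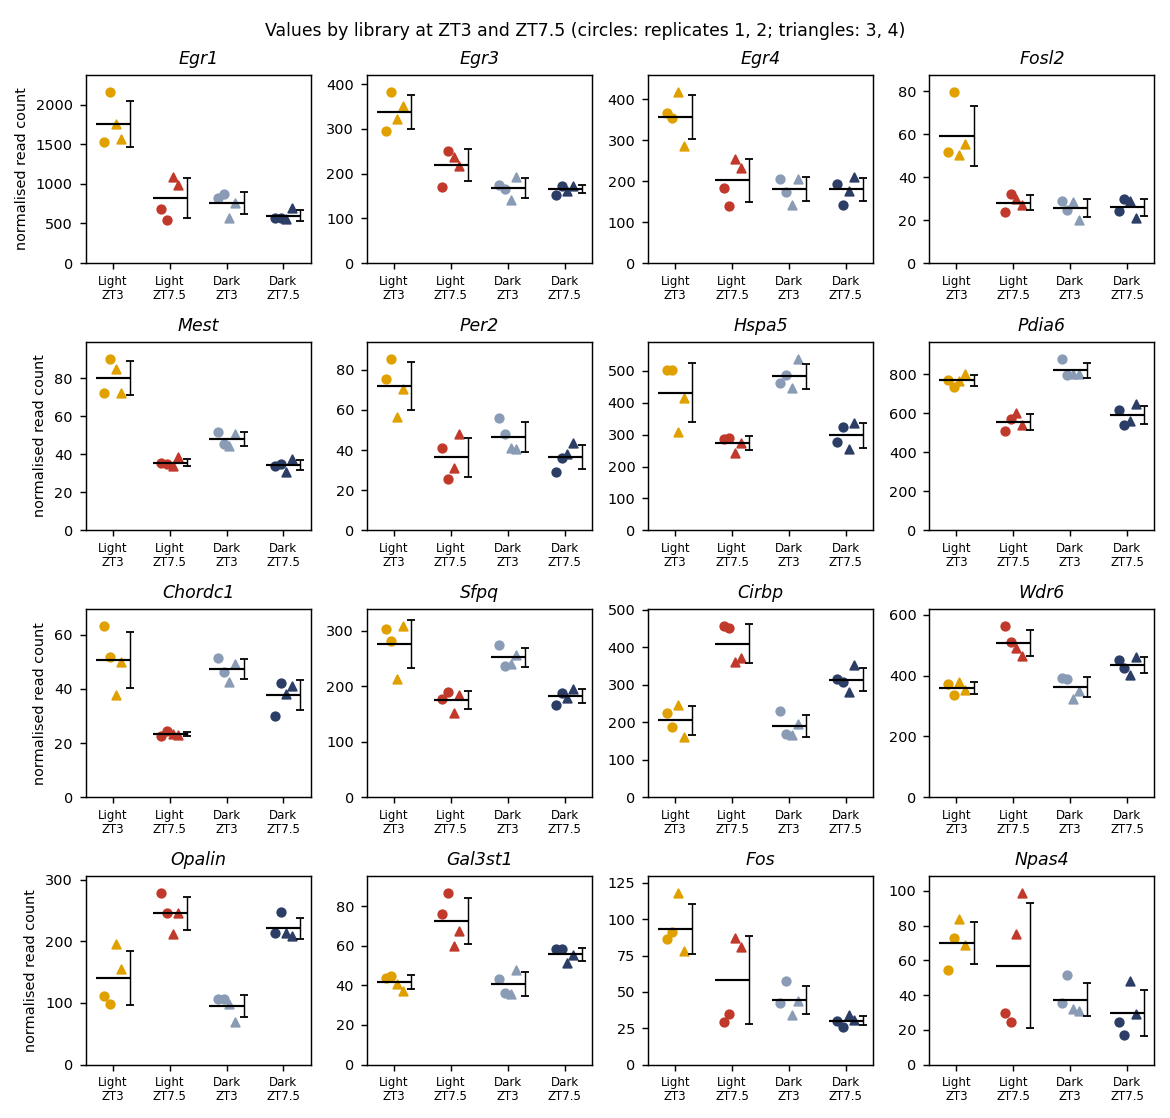
Normalised read counts of 16 genes in each library (y axes, from 0) at ZT3 and ZT7.5 in light and in dark. Circles are replicates 1 and 2, triangles replicates 3 and 4, horizontal lines group means and bars to their right the SD (n = 4). Egr1, Mest, Chordc1 and Cirbp separate the light groups in all 4 libraries, while Fos and Npas4 at Light ZT7.5 split by replicate number.

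Few genes fell on the list of synaptic and secreted activity genes. Of its 30 tested members, 2 fell and none rose, against 0.323% and 0.19% of all genes tested. The list was chosen with earlier results of these data known, so this count is a description. The 2 members, Mest and Cdkn1a, do not stand for synaptic or secreted proteins in general. Mest (chr6:30723547-30748465, plus strand), an imprinted gene for a protein of the hydrolase fold, gave the smallest p of the comparison. Its 4 ZT3 libraries had 72.4, 90.2, 84.9 and 72.4 normalised reads and its ZT7.5 libraries 35.2, 34.9, 33.8 and 38.4. The ZT7.5 values lay within a narrow range far below every ZT3 value, 2.25-fold lower in the mean, at a log2 difference of -1.14 ± 0.16 (SE, adjusted p = 2.1e-05, limma). The change was alike in both pairs of replicates, -1.18 and -1.10, and held with each library left out. Cdkn1a (chr17:29090976-29100727, plus strand), the cyclin-dependent kinase inhibitor p21, had 138, 141, 171 and 161 at ZT3 and 90.8, 95.7, 101 and 87.2 at ZT7.5. Its groups were separate (log2 difference -0.69 ± 0.16 SE, adjusted p = 0.025, limma), but the call was lost in 6 of 8 cases with a library left out, up to 0.0801 without replicate 1 of ZT7.5. Cdkn1a was also the 1 of 21 glucocorticoid-responsive genes that fell, none of which rose.

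Bdnf, a secreted neurotrophin, did not pass, at 27.9 ± 8.55 and 19.2 ± 5.27 normalised reads (SD, n = 4 each). Nptx2, a secreted pentraxin that gathers glutamate receptors, had 144, 158, 187 and 187 at ZT3 and 164, 137, 104 and 88.3 at ZT7.5, which overlap (adjusted p = 0.37, limma). Its pairs ran opposite to those of Fos, with a difference of -0.01 within replicates 1 and 2 and -0.96 within replicates 3 and 4. Of 8 MAP kinase phosphatases and related inhibitors, 1 fell and none rose, against 0.323% and 0.19% of all genes tested. That gene, Dusp14 (chr11:84048041-84069261, minus strand), had 537, 562, 478 and 522 at ZT3 and 387, 395, 430 and 285 at ZT7.5. The groups of Dusp14 did not overlap, and the log2 difference was -0.50 ± 0.10 (SE, adjusted p = 0.0078, limma), with similar values of -0.49 and -0.51 in the pairs. It lost the call without replicate 4 of ZT7.5 (adjusted p = 0.0874) and in 1 further case.

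Signalling genes outside these lists, named by the size of their change or after their values were seen, fell as well. Dio2, the deiodinase that makes active thyroid hormone, had 113, 108, 125 and 129 normalised reads at ZT3 and 73.7, 80.5, 62.4 and 85.2 at ZT7.5 (log2 difference -0.65 ± 0.16 SE, adjusted p = 0.034, limma). Camk1g, a calcium/calmodulin-dependent kinase of neurons, had 241, 206, 242 and 236 against 172, 125, 192 and 159 (-0.53 ± 0.13 SE, 0.034). Smad3, a mediator of TGF-β signals, had 183, 173, 161 and 167 against 101, 111, 138 and 133 (-0.51 ± 0.13 SE, 0.045). In each of these the groups were separate. Each call was also fragile: Dio2 and Camk1g lost it in 7 of 8 cases with a library left out (adjusted p up to 0.136 without replicate 3 of ZT7.5 and up to 0.239 without replicate 2 of ZT7.5) and Smad3 in 5 (up to 0.272 without replicate 1 of ZT7.5).

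**Figure D2:**
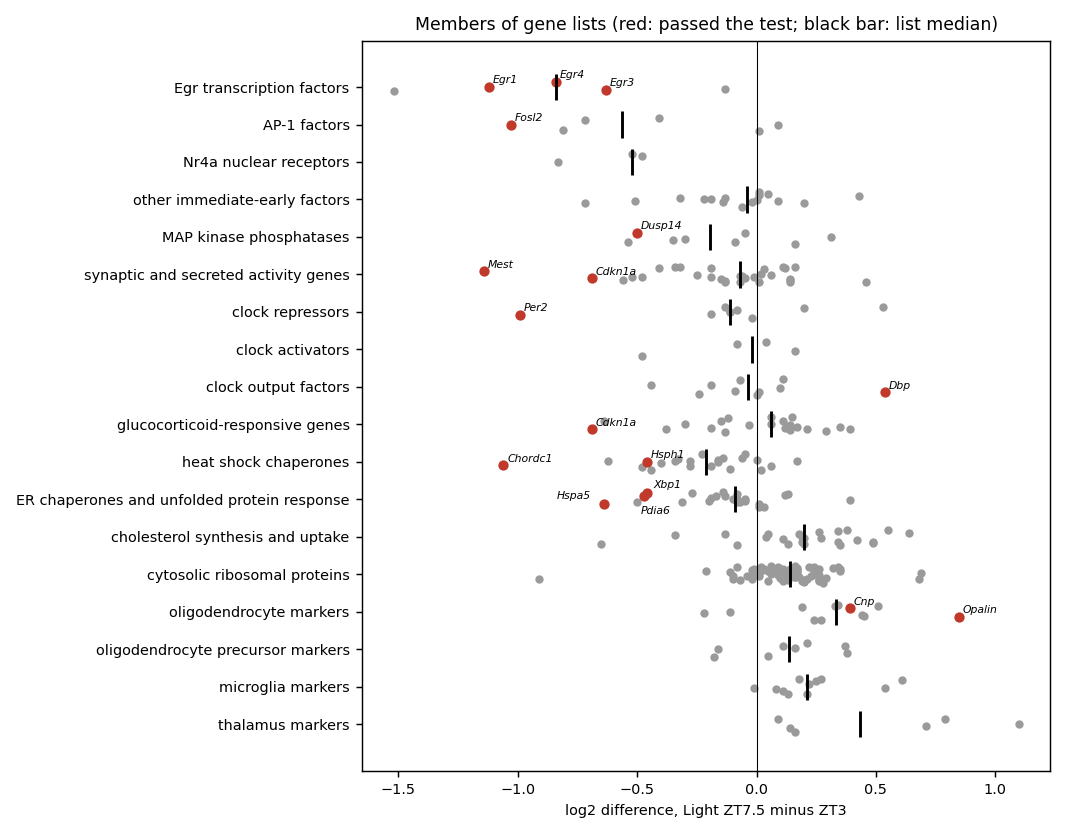
Log2 difference between Light ZT7.5 and ZT3 (x axis) for the tested members of 18 gene lists (rows). Red points passed the test, grey points did not, and black bars are list medians, which are -0.84 for Egr factors and 0.34 for oligodendrocyte markers.

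The core clock moved at few genes over these 4.5 h. Of 9 clock repressors 1 fell and none rose, of 4 activators none passed in either direction, and of 10 output factors 1 rose and none fell. Over all genes tested, 0.323% fell and 0.19% rose. Per2 (chr1:91415982-91459324, minus strand), a repressor of CLOCK and BMAL1 that is also induced by light, had 75.5, 85.5, 56.3 and 70.6 normalised reads at ZT3 and 40.8, 25.8, 31.2 and 47.8 at ZT7.5. Every ZT7.5 library was below every ZT3 library, at 72 ± 12.2 against 36.4 ± 9.8 (SD, n = 4 each), a log2 difference of -0.99 ± 0.17 (SE, adjusted p = 0.00077, limma) that held with each library left out. Its paralogues were level, with differences of -0.13 for Per1 and -0.08 for Per3, as were Cry1 (-0.11) and Cry2 (-0.02).

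Dbp (chr7:45705088-45710203, plus strand), a transcription factor driven directly by the clock, had 538, 641, 595 and 389 normalised reads at ZT3 and 689, 563, 930 and 995 at ZT7.5. Here the groups overlapped, since replicate 2 was lower at ZT7.5 than at ZT3, and the log2 difference of 0.54 ± 0.13 (SE, adjusted p = 0.027, limma) came from replicates 3 and 4 (1.00 within them, 0.09 within replicates 1 and 2). The call on Dbp was lost in 4 of 8 cases with a library left out, up to 0.217 without replicate 4 of ZT3. Nr1d1, which codes for the repressor REV-ERBα, read 450, 408, 393 and 330 at ZT3 and 634, 477, 624 and 547 at ZT7.5, higher in all libraries but without passing (0.53 ± 0.15 SE, adjusted p = 0.12). Arntl, a target of REV-ERBα, read 121, 135, 103 and 147 and then 88.5, 100, 79.3 and 92.4, lower in all libraries but again without passing (-0.48 ± 0.17 SE, adjusted p = 0.24). All ZT7.5 libraries lay above all ZT3 libraries in 2.55% of genes tested in light and 4.32% in dark, and below in 2.62% and 3.4%.

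Of the 2 cold-inducible RNA-binding proteins 1 rose and none fell, against 0.19% and 0.323% of all genes tested. Cirbp (chr10:80165985-80172786, plus strand), whose product binds mRNA and whose transcript accumulates at lower temperature, had 226, 187, 247 and 161 normalised reads at ZT3 and 457, 451, 361 and 372 at ZT7.5. All 4 midday libraries stood well above the highest morning library, 2-fold in the mean (log2 difference 1.01 ± 0.17 SE, adjusted p = 0.0004, limma), in both pairs of replicates (1.14 and 0.88) and with each library left out. Rbm3, its close relative, stood at 16.9 ± 1.47 and 25.2 ± 5.76 (SD, n = 4 each) and did not pass (adjusted p = 0.52).

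Chaperones of the cytosol leaned downwards, in dark as well as in light. Of 22 heat shock chaperones, 2 fell and none rose, against 0.323% and 0.19% of all genes tested. Differences were negative in 19 of the 22, against 5182 of the 10526 genes tested. Their median was -0.21, close to the same in both pairs of replicates (-0.24 and -0.22). Chordc1 (chr9:18292125-18317442, plus strand), a partner protein of HSP90, had 63.2, 51.6, 37.9 and 49.8 normalised reads at ZT3 and 22.7, 24.3, 23.4 and 22.9 at ZT7.5. The ZT7.5 libraries differed little among themselves and lay below every ZT3 library (log2 difference -1.06 ± 0.19 SE, adjusted p = 0.00077, limma), with each library left out as well. Hsph1 (chr5:149614287-149636376, minus strand), the large HSP110 chaperone, had 789, 811, 612 and 727 at ZT3 and 570, 633, 520 and 428 at ZT7.5. Those groups overlapped at 1 library each (-0.46 ± 0.11 SE, adjusted p = 0.025), and the call was lost in 5 of 8 cases with a library left out, up to 0.162 without replicate 2 of ZT3. The constitutive Hspa8 read 5570 ± 743 and 4948 ± 301 (SD, n = 4 each) and the inducible Hspa1a 94.1 ± 11.9 and 68.9 ± 8.76, neither of which passed (adjusted p = 0.46 and 0.31). Dnajb5, a DNAJ co-chaperone, was lower without overlap, at 324 ± 26.7 and 231 ± 15.3, but its adjusted p was 0.064.

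In the ER, 3 of 25 chaperones and unfolded-protein-response genes fell and none rose, against 0.323% and 0.19% of all genes tested. The median of the whole list was -0.089. Pdia6 (chr12:17266545-17284770, plus strand), a protein disulfide isomerase, had 770, 735, 764 and 800 normalised reads at ZT3 and 509, 568, 602 and 541 at ZT7.5. Its spread within each group was small beside the gap between them (log2 difference -0.47 ± 0.08 SE, adjusted p = 0.00077, limma), and the pairs of replicates gave -0.48 and -0.45. Xbp1 (chr11:5520659-5525893, plus strand), the transcription factor activated by IRE1, had 606, 611, 572 and 547 at ZT3 and 415, 419, 453 and 415 at ZT7.5. This too was a clear separation (-0.46 ± 0.09 SE, adjusted p = 0.0045), and both calls held with each library left out. Hspa5 (chr2:34771970-34777547, plus strand), the HSP70 of the ER known as BiP, had 503, 502, 309 and 414 at ZT3 and 285, 290, 241 and 275 at ZT7.5. Replicate 3 of ZT3 was the nearest to the ZT7.5 values but above all of them (-0.64 ± 0.13 SE, adjusted p = 0.0079). The call on Hspa5 was lost in 2 of 8 cases, with a highest adjusted p of 0.0805 without replicate 1 of ZT3. Hsp90b1 (-0.19) and Calr (-0.27), further ER chaperones, did not pass (adjusted p = 0.49 and 0.12).

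RNA-binding proteins of the splicing machinery were named by rank or after their values were seen, and no list of them was tested. Sfpq (chr4:127021324-127037013, plus strand), a paraspeckle protein, had 303, 282, 214 and 309 normalised reads at ZT3 and 177, 190, 152 and 184 at ZT7.5. The groups did not overlap (log2 difference -0.64 ± 0.10 SE, adjusted p = 0.00031, limma), and the call held with each library left out. Tra2a, a splicing activator, had 117, 149, 102 and 92.4 against 65.8, 66.8, 75.4 and 83.1 (-0.64 ± 0.14 SE, 0.011). Hnrnpm had 481, 462, 434 and 395 against 292, 333, 334 and 374 (-0.41 ± 0.10 SE, 0.028). Both were separate between groups, with smaller changes within replicates 3 and 4 (-0.29 and -0.23) than within replicates 1 and 2 (-0.98 and -0.60). Tra2a was lost in 3 and Hnrnpm in 5 of 8 cases with a library left out, up to 0.162 without replicate 2 of ZT3 and 0.194 without replicate 1 of ZT7.5.

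Among genes that passed the test, the largest fall by size was that of Lonrf1 (chr8:36216064-36249516, minus strand). Lonrf1, which codes for a RING finger protein with a LON domain, went from 43.2, 50.4, 27.6 and 42.6 normalised reads to 18.2, 19.7, 13 and 18.7. The groups were apart, at a log2 difference of -1.17 ± 0.22 (SE, adjusted p = 0.0025, limma). Other falls among the 15 largest were Tubd1 (delta-tubulin, -1.03), Rnf32 (-0.87), Vps36 (a subunit of the ESCRT-II complex, -0.66), and Fnbp1l (an F-BAR protein that shapes membranes, -0.64). Each lost its call in at least 3 of 8 cases with a library left out, up to adjusted p-values of 0.239 for Tubd1 and 0.159 for Fnbp1l without replicate 2 of ZT7.5, 0.0683 for Rnf32 without replicate 4 and 0.189 for Vps36 without replicate 1 of the same time.

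Genes of the myelin-forming oligodendrocyte were among the rises. Of 12 oligodendrocyte markers 2 rose and none fell, against 0.19% and 0.323% of all genes tested. Differences were positive in 10 of the 12, against 5344 of the 10526 genes tested, with a median of 0.34. Opalin (chr19:41061710-41077113, minus strand), a membrane glycoprotein of myelin, had 111, 98.4, 195 and 155 normalised reads at ZT3 and 278, 246, 211 and 245 at ZT7.5. The groups did not overlap, with the low values of replicates 1 and 2 at ZT3 making the larger gap (log2 difference 0.85 ± 0.17 SE, adjusted p = 0.0043, limma). Cnp (chr11:100574904-100591729, plus strand), a phosphodiesterase of the myelin sheath, had 1398, 1194, 1678 and 1582 at ZT3 and 2116, 1950, 1657 and 1927 at ZT7.5. One ZT7.5 library of Cnp, replicate 3, lay below the highest ZT3 library (0.39 ± 0.10 SE, adjusted p = 0.038). Mog stood at 302 ± 48.2 and 436 ± 106 (SD, n = 4 each) and just missed the threshold (adjusted p = 0.057).

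Further genes known from oligodendrocytes rose but are not on that list. Gal3st1, which makes the myelin lipid sulfatide, had 43.9, 44.5, 40.9 and 37.1 normalised reads at ZT3 and 76, 86.6, 59.8 and 67.5 at ZT7.5 (0.78 ± 0.17 SE, adjusted p = 0.013, limma). Gpr62, an orphan receptor, had 48.5, 38.7, 64.5 and 57.1 against 93, 89.6, 78 and 91.4 (0.76 ± 0.17 SE, 0.02). Pllp, the myelin protein plasmolipin, had 308, 311, 382 and 350 against 565, 489, 404 and 447 (0.49 ± 0.12 SE, 0.042). In these 3 genes every ZT7.5 library exceeded every ZT3 library.

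The oligodendrocyte rise was uneven over the libraries. Summed over the 12 markers, ZT3 libraries held 18900, 14460, 23460 and 20960 normalised reads and ZT7.5 libraries 22760, 23670, 22430 and 28590, which overlap. Mbp alone made up most of each sum, with 13320, 9267, 16860 and 14370 at ZT3 and 15180, 16070, 15820 and 19440 at ZT7.5. The list median was 0.54 for replicates 1 and 2 alone and 0.14 for replicates 3 and 4. With replicate 2 of ZT3 left out, whose sum was the lowest, the calls on Opalin (adjusted p = 0.0709), Cnp (0.344) and Gpr62 (0.187) were lost, and without replicate 1 of ZT7.5 that on Pllp (0.273). Gal3st1 was lost in 3 of 8 cases, up to 0.0946 without replicate 2 of ZT7.5. Precursor markers (8 tested, median 0.14) and microglial markers (11 tested, median 0.21) had no member that passed in either direction. The microglial markers were nonetheless higher at ZT7.5 in 10 of 11 cases, against 5344 of the 10526 genes tested. The sums of the microglial markers, 2413 to 2945 at ZT3 and 2996 to 3333 at ZT7.5, did not overlap. Their part in the oligodendrocyte rise was not tested.

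The remaining rises that passed the test had no common list. Wdr6 (chr9:108572311-108578739, minus strand), a WD-repeat protein, had 371, 337, 378 and 352 normalised reads at ZT3 and 563, 510, 490 and 465 at ZT7.5. The groups were far apart for their spread (log2 difference 0.49 ± 0.09 SE, adjusted p = 0.00077, limma), and the call held with each library left out. By size the largest rises were Snx20, a sorting nexin, from 5.39, 2.34, 11.3 and 8.15 to 15.9, 16.7, 18.2 and 14.5 (1.30 ± 0.30 SE, 0.021), and Pla2g4e, a cytosolic phospholipase, from 7.71, 7.03, 15.4 and 8.15 to 18.2, 30.4, 20.8 and 21.8 (1.21 ± 0.29 SE, 0.03). Both rest on few reads per library, and Snx20 was lost in 5 and Pla2g4e in 6 of 8 cases with a library left out (up to 0.269 and 0.168, each without replicate 2 of ZT3). Pigz, a mannosyltransferase of GPI anchors, rose by 0.71, Ppp1r14a, an inhibitor of myosin phosphatase, by 0.66, Vma21, an assembly factor of the vacuolar proton pump, by 0.61, Pdlim2 by 0.60 and Cyba, a subunit of NADPH oxidase, by 0.53. The call on Cyba was lost with any 1 of the 8 libraries left out (up to 0.193 without replicate 1 of ZT7.5). The others were lost in 4 to 5 of 8 cases, Vma21 up to 0.287 without replicate 1 of ZT3, Pigz and Pdlim2 up to 0.229 and 0.179 without replicate 2 of ZT3, and Ppp1r14a up to 0.394 without replicate 2 of ZT3.

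Broad lists had no called member. The 74 cytosolic ribosomal protein genes had a median of 0.14, with none called and 61 above 0, against 5344 of the 10526 genes tested. Their sums did not overlap, at 149800 to 155600 normalised reads at ZT3 and 165100 to 171500 at ZT7.5, and in 10 of the 74 genes every ZT7.5 library was above every ZT3 library, as in 2.55% of all genes. The 24 cholesterol genes had a median of 0.20, with none called and 20 above 0, against 5344 of the 10526 genes tested. Their median was 0.40 for replicates 1 and 2 alone and 0.017 for replicates 3 and 4. Their sums were also separate, at 3591 to 3928 and 4082 to 4783. Of 71 oxidative phosphorylation, 29 proteasome and 23 glutamate and GABA receptor genes none passed. Markers of excitatory neurons, interneurons, astrocytes, endothelial, mural, meningeal, choroid plexus, hippocampal and striatal cells had none called, with medians from -0.12 to 0.15. The 6 thalamic markers had a median of 0.43, all positive and none called, and Tnnt1 (101) and Calb2 (278) were highest in replicate 1 of ZT7.5. With Prkcd and Tnnt1 as a term, 39 of the 54 calls were kept.

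Most of the 54 changes had the same direction in mice kept in darkness, and none was shown to depend on light. In the dark arm 21 of the 10526 genes passed (0.2%), 13 upwards (0.124%) and 8 downwards (0.076%). All 20 genes that rose in light and 31 of the 34 that fell had the same sign in dark, against 64.4% of all genes tested. At an unadjusted p under 0.05 in dark, which 9.36% of all genes reached in either direction, 14 of the rises and 15 of the falls had their direction of light. The light rises had a median log2 difference of 0.61 in light and 0.40 in dark, and the light falls -0.60 and -0.30. The genes that passed in dark shrank the other way, with medians of 0.73 in dark and 0.55 in light for the rises and -0.49 and -0.34 for the falls. Each set was chosen on its own arm, so these medians do not compare the arms. Several whole lists leaned in dark as in light. Their dark medians were -0.255 for heat shock chaperones (20 of 22 negative) and -0.249 for MAP kinase phosphatases. Oligodendrocyte markers had 0.369, microglial markers 0.248 (all 11 positive) and cholesterol genes 0.301. Dark medians of Egr factors (-0.0272), cytosolic ribosomal proteins (0.0115) and thalamic markers (-0.287) were unlike those in light. List medians were not tested between arms. The 9 genes called in both arms, 16.7% of light and 42.9% of dark calls, were Cirbp, Opalin, Ppp1r14a, Pdlim2 and Pigz, which rose, and Hspa5, Pdia6, Sfpq and Hnrnpm, which fell. For Pdia6 the difference was -0.47 in each arm, for Hspa5 -0.64 in light and -0.70 in dark, and for Opalin 0.85 and 1.23. Calr and Hsp90b1 fell in dark (-0.41 and -0.52, adjusted p = 0.0037 for each, limma), and with Hspa5 and Pdia6 they made up the 4 of 25 ER genes that did. Mog and the cholesterol gene Mvd rose in dark alone by the test (0.60 and 1.02, adjusted p = 0.024 and 0.0028), with 0.51 and 0.55 in light, and their arms were not shown to differ (unadjusted p of the difference 0.64 and 0.081).

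The difference between arms itself passed for 0 genes by limma, by edgeR and by DESeq2, with 332 at an unadjusted p under 0.05 by limma (3.15%). Of the light falls 17 were among these 332, and of the light rises 3. These counts are a description, since the genes were chosen on the light change that the difference between arms contains. Among called genes of the activity lists the unadjusted p-values (limma) were 0.00094 for Egr3, 0.0011 for Egr1 and for Egr4 and 0.003 for Fosl2. They were 0.0027 for Dusp14, 0.0041 for Mest and 0.091 for Cdkn1a, none below an adjusted p of 1. Those of activity genes that were not called were 0.1 for Fosb, 0.15 for Nptx2, 0.17 for Egr2, 0.3 for Arc and for Bdnf, 0.56 for Fos, 0.75 for Junb, 0.82 for Nr4a1 and 0.84 for Npas4. In dark, Egr1 read 825, 874, 564 and 759 at ZT3 and 575, 564, 559 and 701 at ZT7.5. At Light ZT7.5 it read 684 and 548 in replicates 1 and 2. Replicates 3 and 4 of Light ZT7.5, at 1083 and 985, were above all of these dark values. Egr3 in dark was 168 ± 21.6 and 165 ± 9.09 (SD, n = 4 each), Egr4 181 ± 29.8 and 180 ± 29.1, and Fosl2 25.6 ± 4.12 and 25.9 ± 4.03, all flat and at or below Light ZT7.5. Per2 went from 46.4 ± 7.35 to 36.7 ± 6.04 in dark (unadjusted p of the difference 0.009), and Chordc1 from 47.4 ± 3.88 to 37.8 ± 5.46 (0.0074). Dio2 (0.15) and Vps36 (0.13) had positive differences in dark, with unadjusted p of 0.00065 and 0.00094. Of the 6 genes with the smallest p of the difference, Bpgm, bisphosphoglycerate mutase (0.0004), and Cc2d2a, a protein of the base of the cilium (0.00083), were not called in either arm.

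**Figure D3:**
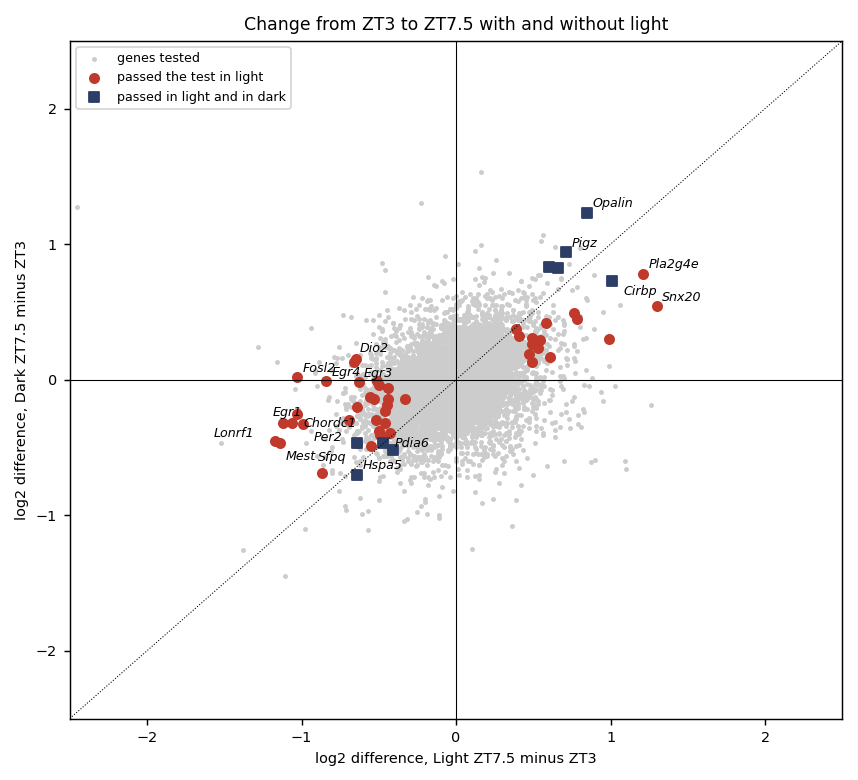
Log2 difference between ZT7.5 and ZT3 in light (x axis) and in dark (y axis) for the 10526 genes tested (grey), the light calls (red) and the 9 genes called in both arms (blue squares); the dotted line marks equal change. Egr3, Egr4 and Fosl2 lie on the horizontal axis, whereas Opalin, Cirbp and Hspa5 lie towards the diagonal.

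Over the whole day in light, Egr1 was 2405 ± 97.2 at ZT1 (SD, n = 4), 1752 at ZT3, 825 at ZT7.5 and 1198 ± 183 at ZT11.5, and its means of 771 at ZT15 and 518 at ZT18 were below that of ZT7.5. Fos had 389 ± 76 at ZT1, 93.3 at ZT3, 58.1 at ZT7.5, 118 ± 57.9 at ZT11.5 and 34.3 at ZT18. Fosl2, Mest and Cdkn1a had similar means at ZT1 and ZT3 (51.1 and 59.2, 76.7 and 80, 154 and 153) and lower means at ZT7.5. Chordc1 had its lowest mean of the day at Light ZT7.5 (23.3 ± 0.726), as did Per2 (36.4), Hspa5 (273) and Pdia6 (555) among light times. Cirbp (410), Opalin (245), Gal3st1 (72.5) and Wdr6 (507) had their highest light means there. Differences from the other times were not tested here.

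**Figure D4:**
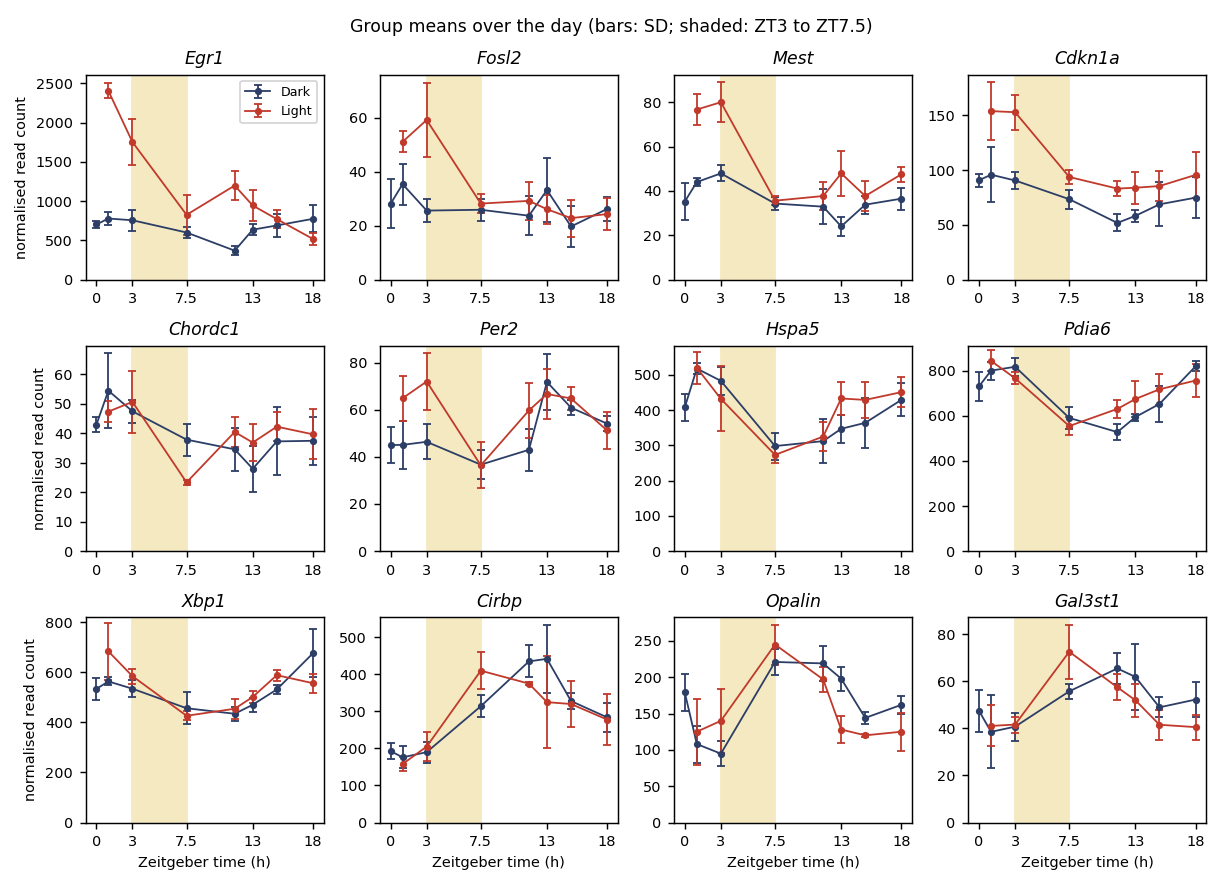
Mean normalised read count (y axes, from 0) of 12 genes by Zeitgeber time in light (red) and dark (blue), with SD (n = 3 or 4) and the interval from ZT3 to ZT7.5 shaded. In light, Egr1 runs from 1752 to 825 and Cirbp from 205 to 410 over the shaded interval.

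The number of calls rested heavily on single libraries and on the other groups of the series. It was 24, 14, 76 and 33 without replicates 1 to 4 of ZT3 and 22, 28, 42 and 41 without replicates 1 to 4 of ZT7.5. Fitted to these 8 libraries alone, 3 genes passed, Mest, Egr1 and Cirbp. With each library left out in turn, 10 of the 54 were called every time, namely Mest, Egr1, Sfpq, Cirbp, Per2, Wdr6, Pdia6, Chordc1, Lonrf1 and Xbp1. Replicates 1 and 2 alone gave 187 calls (1.78%), replicates 3 and 4 alone 1 (0.0095%). All 54 had the same sign in both pairs, and 18 of 20 rises and 27 of 34 falls were larger in replicates 1 and 2. The medians were 0.81 and 0.44 for the rises and -0.66 and -0.49 for the falls. The choice of the 54 used all 8 libraries, so their shared sign between pairs is a description. Across all genes tested the changes of the 2 pairs correlated at a Pearson r of 0.12, where genes are not independent replicates.

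**Figure D5:**
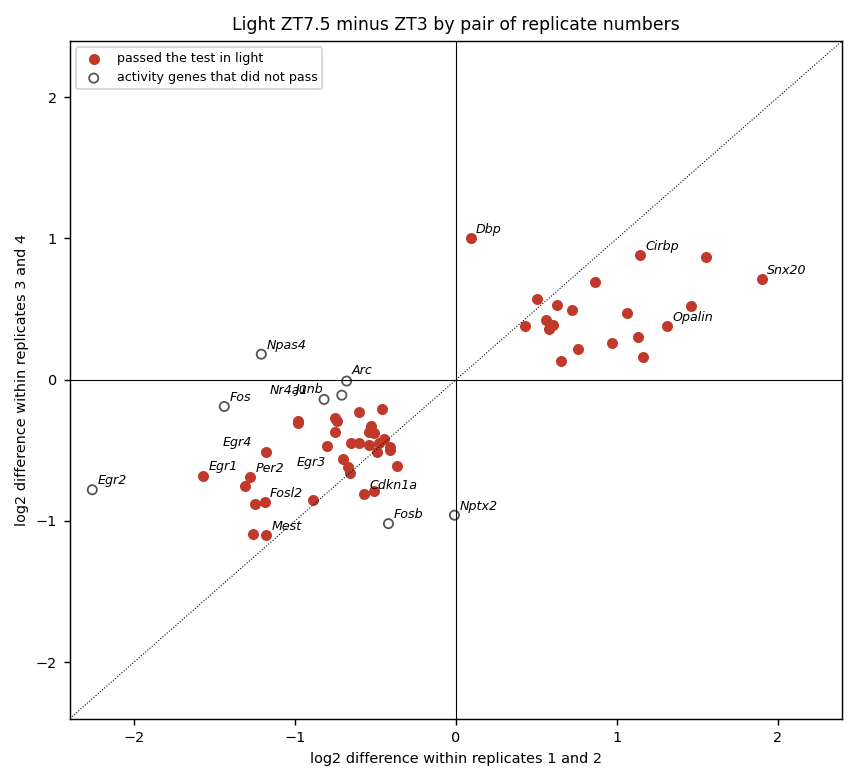
Log2 difference between Light ZT7.5 and ZT3 within replicates 1 and 2 (x axis) and within replicates 3 and 4 (y axis) for the 54 called genes (red) and 8 activity genes that did not pass (open circles); the dotted line marks equal change. Mest lies on the line at -1.18 and -1.10, whereas Fos (-1.44 and -0.19) and Npas4 (-1.21 and 0.18) lie far from 0 on the first pair, and Nptx2 (-0.01 and -0.96) and Dbp (0.09 and 1.00) on the second.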

How the data were processed

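For these MARS-Seq libraries the submitters' processing notes name cutadapt, STAR 2.5.2b, the mm10 build and DESeq2. RNA was extracted with an RNeasy kit, per the labels' protocols. No annotation, strand setting or use of molecular identifiers is named in these sources; reads of overlapping or antisense genes may therefore be mixed. The authors deposited 1 signal value per gene and library, a gene count divided by the library's size factor. Of 24421 rows, 27 with date names (0.294% to 0.363% of a library's reads) were left out. Whole reads were recovered from the spacing of low values: 100% of values came within 0.01 of whole reads, and totals ran from 1.64 to 4.31 M. The 24 replicate pairs compared differed by more than counting noise (chi-square per degree of freedom 2.05 to 5.08). Whether these are reads or molecules is not given, so the precision at low counts is uncertain.

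Genes with a mean of at least 10 over all 57 libraries (10526) were fitted with limma 3.58.1 (mean-variance trend, R 4.3.3) on log2(value + 1), a scale that understates changes of low genes. All 15 groups shared 1 estimate of spread, tests were two-sided, and Benjamini-Hochberg adjustment ran over all genes, with a threshold of 0.05. Alternatives were a pseudocount of 5, no filter, a minimum mean of 50, TMM, a fit to the compared groups, replicate block and pair terms, Ttr or thalamic terms, each library left out, each replicate pair alone, and edgeR 4.0.16 and DESeq2 1.42.0 on recovered reads; the pair term and the test of the difference between replicate pairs were added after seeing the data. On simulated data for Light ZT7.5 against ZT3 (10526 genes), 34% of genes changed by 0.5 on the log2 scale were called, 74% of those changed by 1, and 0.0484% of unchanged genes.

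Named genes were the 15 rises and the 15 falls of largest size among those that passed (gene models with no name skipped), all members of the activity, clock, glucocorticoid, cold and heat shock lists, and, for every other list, its 4 members of lowest p, with the 6 genes of lowest p for the difference between arms; others are said to have been named after their values were seen. The comparison, its 35 gene lists and the motifs were chosen with earlier results of these data known. Gene positions are from GENCODE M21 (GRCm38), with 257 of 259 named genes matched. A few named genes are not reported here one by one.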

Additional observations from a re-analysis of the deposited data

Results flagged for a closer look

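In 30 of 496 groups of 4 libraries checked for the named genes (6.05%), 1 library stood far from the other 3 by Dixon's ratio at its 95% critical value. Chance flags about 1 in 20 such groups. The values are normalised reads in light, each given with the range of the other 3 libraries where the gene passed the test.

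Of the called genes, Xbp1 was high in replicate 3 of ZT7.5 (453, others 415 to 419) and Rmdn3 in replicate 1 of ZT7.5 (160, others 129 to 131), both still below every ZT3 library. Pla2g4e was high in replicate 3 of ZT3 (15.4, others 7.03 to 8.15) and Camk1g low in replicate 2 of ZT3 (206, others 236 to 242).

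At ZT3, genes not called were high in replicate 1 for Sorcs3 (65.5), in replicate 2 for Calb2 (85.5), in replicate 3 for Nr4a1 (541), and in replicate 4 for Hsp90ab1 (4698) and Klf4 (45.3). Low values were those of Inhba (57.8) and Klf6 (37) in replicate 1, of C1qb (391), Wfs1 (191), Nptx1 (345) and Slc6a13 (37.5) in replicate 2, of Errfi1 (21.5) in replicate 3 and of Plk3 (56.1) in replicate 4.

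At ZT7.5, genes not called were high in replicate 1 for Rpl11 (2903) and Calb2 (278), in replicate 3 for Hspa1a (81.9), Rasl11b (371) and Ppp1r1b (484), and in replicate 4 for Col1a1 (229) and Hspd1 (411). Low values were those of Sst (2052), Hspe1 (563), S100b (374) and Scube1 (39.5) in replicate 2, of Hspa4 (304) in replicate 3 and of C1qa (715) in replicate 4.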

How the results depend on the processing

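No called gene reversed its direction under any alternative run. A pseudocount of 5 kept 53 of the 54 light calls, TMM, the replicate block and the pair term 54, DESeq2 46, edgeR 49, a Ttr term 45, and no filter and the thalamic term 39 each; of the 43 called genes above a mean of 50, all were kept. The thalamic term left 13 rises. With the compared groups alone the light calls were 3 (1 up, 2 down), within replicates 1 and 2 they were 187 (94 up, 93 down) and within replicates 3 and 4 they were 1 (1 up, 0 down). With a library left out they ran from 14 to 76, rises from 5 to 38 and falls from 9 to 38. The dark calls numbered 37 with the compared groups alone (22 up, 15 down), 34 with the replicate block (23 up), 33 with the pair term (23 up), 70 with DESeq2 (42 up, 28 down), 3 within replicates 1 and 2 (2 up, 1 down) and 5 within replicates 3 and 4 (3 up, 2 down). With a library left out they ran from 7 to 28, rises from 3 to 17 and falls from 4 to 11. The difference between arms gave 2 genes within replicates 1 and 2 and 1 within replicates 3 and 4, and 0 elsewhere. The cause of these differences in number was not tested. The smaller fits also held fewer libraries. Same-numbered libraries of ZT3 and ZT7.5 in light correlated at 0.05, 0.24, 0.16 and 0.17 in their deviations from the group means. Differently numbered ones ran from -0.32 (replicate 3 of ZT3 with 2 of ZT7.5) to 0.22 (replicate 1 with 2). Replicates 2, 3 and 4 of ZT3 correlated best with their own number, and replicate 1 did not. The numbers were not taken to pair samples in the main fit, and the replicate block kept all 54 calls. At this depth, genes with few reads, such as Snx20 and Tubd1, are the least precise.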
